A study of Mus musculus with 2 samples.

Results

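Cells sorted from adult mouse hearts, most with a heart muscle profile and all with a deep RNA profile, were compared by the chamber label they carried. The members were the cells of the multichamber study that held at least 20000 gene UMIs, with the ERCC spike-in rows left out. Of 332 labelled cells in that study, and 404 in the series, 189 met the rule. They were 33 of 140 cells labelled atrial (24 of the left atrium, LA, and 9 of the right, RA) and 156 of 192 labelled ventricular (76 of the left ventricle, LV, and 80 of the right, RV). The rule rests on a measured value, the UMI total, so the totals are given only as a description. Just inside it lay an atrial-labelled cell with 20225 and a ventricular-labelled cell with 21467 gene UMIs, and just outside it cells with 19526 and 19930.

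All cells came from wild-type C57BL/6 mice of about 3 months, and no cell of this study was fixed. Hearts were perfused with collagenase and protease, and single cells were sorted by large-particle fluorescence-activated cell sorting, which passes particles as big as a rod-shaped myocyte. RNA was profiled by SCRB-seq, a plate method that tags the 3' ends of polyadenylated RNA with a cell barcode and a unique molecular identifier (UMI), so that PCR copies of one molecule are counted once. The labels' protocol describes excision and mincing of the ventricle. Nothing in the sources used here says how the atria were separated. Wells sat in 4 libraries, A to D. In that order the libraries held 9, 15, 8 and 1 deep atrial-labelled cells, and 36, 38, 40 and 42 deep ventricular-labelled cells. Chambers occupied separate plate rows in every library, so chamber and row cannot be told apart. All 84 cell barcodes recur in more than 1 library, and none is used more than once within a library.

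Atrial and ventricular myocytes share most of their contractile and metabolic machinery and differ in a small set of genes. Atrial myocytes use the myosin light chains Myl7 and Myl4, store atrial natriuretic peptide (Nppa) in granules, and slow their calcium pump with sarcolipin (Sln). Ventricular myocytes use the light chains Myl2 and Myl3 and the repressor Irx4, which keeps atrial genes off. A sorted myocyte preparation can also hold mesothelial cells of the heart's surface, capillary endothelial cells, pericytes, fibroblasts and red cells, whose genes were followed in the same cells.

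Animals are not named in the cell labels. Each side was therefore 1 pool without replicates, and no difference was tested. Levels are UMIs per 1000000 nuclear-encoded UMIs (CPM), from 1164342 such UMIs in the atrial-labelled and 5376984 in the ventricular-labelled pool. Log2 ratios are of atrial-labelled over ventricular-labelled CPM after adding 5 CPM to each, which pulls low genes toward 0. Folds are of the CPM themselves. Intervals are exact 95% intervals that cover counting error only, not differences between cells or animals. A gene with at least 30 UMIs over both pools is called measured, and at least 1.5-fold apart on the log2 ratio is called higher or lower.

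The median deep atrial-labelled cell held 38613 gene UMIs (20225 to 183391) and the median ventricular-labelled cell 51198.5 (21467 to 223454). Per UMI of spike-in RNA, the medians were 85.6 and 113 gene UMIs, and 25 of the 33 atrial-labelled cells lay below the ventricular median. Mitochondrially encoded RNA made up a median of 36.0% against 40.9% of gene UMIs, with 21 of 33 atrial-labelled cells below the ventricular median. Thinned to 20000 UMIs, all cells being deep enough, the medians were 2927 and 2801 detected genes. The parts that these differences in depth and mitochondrial share play in the results below were not tested.

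The deep atrial-labelled cells carried the ventricular light chains at the level of ventricular-labelled cells. Myl2, which encodes the ventricular regulatory light chain (chromosome 5, 122100951 to 122113472, plus strand, GRCm38), ranged over atrial-labelled cells from 679.6 to 16871 CPM with a median of 11358. In ventricular-labelled cells it ranged from 1126 to 19921 CPM with a median of 10944. The ranges overlapped almost throughout: 27 of 33 atrial-labelled cells lay between the 5th and 95th ventricular percentiles (6995 and 15521 CPM), 4 below and 2 above. The pooled ratio was 1.01 (0.990 to 1.03). Myl3, the essential light chain of ventricular muscle, had cell medians of 10652 and 10337 CPM and a pooled ratio of 1.01 (0.990 to 1.03).

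The defining atrial genes were at or near 0. Nppa gave no UMI in the 33 atrial-labelled cells, which allows up to 2.58 CPM at 3 counts over the pool, and 2 UMIs in the ventricular-labelled cells. Sln gave 5 UMIs in atrial-labelled and 3 in ventricular-labelled cells, and Myl4, the atrial essential light chain, 2 and 28. Myl7, the atrial regulatory light chain, gave 74 UMIs in atrial-labelled cells, of which 1 LA cell of library B held 63 and another LA cell of library C held 3, and 3 in ventricular-labelled cells. The other 8 UMIs came from 4 LA cells, and RA cells held none. By these markers the cells labelled atrial did not show an atrial myocyte profile, so they are called atrial-labelled throughout.

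**Figure D1:**
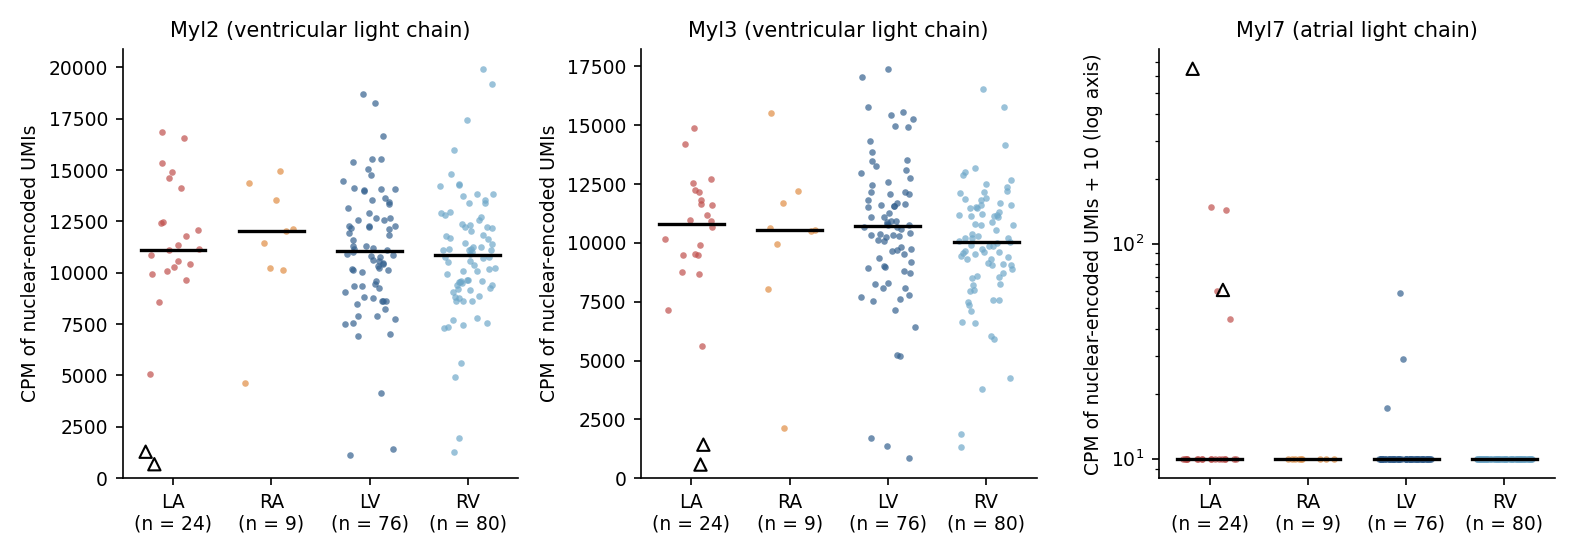
CPM per cell of Myl2, Myl3 (linear axes) and Myl7 (log axis, 10 CPM added), by chamber label; points are cells, bars medians, and triangles the 2 mesothelial-rich cells described in the text. Myl2 and Myl3 overlap across the 4 labels (pooled ratios 1.01), and Myl7 is at 0 in all but 6 atrial-labelled and 3 ventricular-labelled cells.

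Most of the rest of the ventricular list lay within 1.5-fold in the pools. Of 15 genes listed, 12 were measured, none was higher and 1 was lower, with a median log2 ratio of -0.10 (0.070, with 2 lower, without 2 mesothelial-rich cells described further on). For comparison, 14.4% of all 11450 measured genes were higher and 17.7% lower, and their median log2 ratio was -0.042. The lower gene was Irx3, a homeobox factor of the ventricular conduction system, at 13.7 against 27.9 CPM (2.03-fold lower, 1.21 to 3.64). Irx4, the ventricular repressor, had 19.8 against 21.8 CPM, a ratio of 0.908 (0.554 to 1.43). That value joined libraries of opposite sign, with log2 ratios of 0.65, -2.40 and 1.08 in A, B and C. The transient outward potassium channel gene Kcnd2 and its partner Kcnip2 had log2 ratios of -0.25 and -0.20. Without the mesothelial-rich cells Kcnd2 was lower, at -0.68. Kcnj2, a subunit of the inward rectifier, had 0.31. Gja1, the gap junction protein connexin 43, had 0.19, Myh7, the slow myosin heavy chain, -0.12, the LIM protein Fhl2 -0.085, Lbh -0.055 and the amino acid transporter Slc16a10 -0.33.

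Of the 16 genes listed for atrial myocytes 10 were measured, 2 higher and 3 lower, with a median log2 ratio of -0.41. Leaving out the mesothelial-rich cells, 1 was higher and 2 lower, at a median of -0.25. Besides Myl7, the higher gene was Stard10, a lipid transfer protein, 1.66-fold higher (1.22 to 2.24). Its log2 ratio was 1.00, 0.60 and 0.52 within libraries A, B and C, the libraries with at least 3 cells on each side, and its pooled level was 53.2 (LA), 53.4 (RA), 26.5 (LV) and 36.6 CPM (RV). The lower genes were Tbx5, Myl4 and the orphan receptor gene Nr2f2, a factor of atrial identity (5.15 against 11.7 CPM, with an interval of the ratio from 0.156 to 1.01). Within 1.5-fold lay the muscarinic receptor Chrm2 (log2 -0.44), the channel subunit Kcnj3 that this receptor opens (-0.44), the peptide-amidating enzyme Pam (-0.26), the secreted chaperone clusterin Clu (0.15) and the calcium channel gene Cacna1d (-0.38).

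Kcnj5, which encodes the partner of Kcnj3 in the acetylcholine-gated potassium channel, was higher at 64.4 against 20.3 CPM (3.18-fold, 2.34 to 4.30). The excess was in LA-labelled cells, with 84.1 CPM against 19.7 in RA, 24.8 in LV and 16.4 in RV, and 1 cell gave 37.3% of the atrial-labelled UMIs. Without that cell its log2 ratio was 0.88. It was the only higher gene among 14 measured potassium channel genes, of which 1 was lower. Of all genes, 14.4% were higher and 17.7% lower.

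Among 20 cardiac transcription factors 2 were higher and 4 lower, close to the shares of all genes (14.4% and 17.7%). Esrrb, an estrogen-related receptor, stood at 15.5 against 51.5 CPM (3.33-fold lower, 2.07 to 5.71). Both atrial labels (LA 12.4, RA 22.5 CPM) lay below both ventricular labels (LV 52.5, RV 50.7 CPM). At 20000 UMIs per cell an Esrrb UMI would be seen in 19.2% of atrial-labelled and 36.0% of ventricular-labelled cells (13 of 33 and 89 of 156 before thinning). Tbx5, a T-box factor needed for the conduction system and the atria, was lower by 3.60-fold (1.77 to 8.51). Zfpm2, a partner of GATA factors, was lower by 1.83-fold (1.51 to 2.24) and Tbx20, another T-box factor, by 1.71-fold (1.32 to 2.25).

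Each of these 4 log2 ratios lay below 0 within libraries A, B and C. They ran from -0.79 to -1.81 for Esrrb and from -0.98 to -1.43 for Tbx5. Zfpm2 was at -0.21 or below, and Tbx20 ran from -0.39 to -1.16. The medians of all measured genes were themselves -0.27, -0.029 and -0.18 in A, B and C, so library values are to be read against them. The higher factors were the homeobox genes Meis1 (91.0 against 38.3 CPM) and Meis2 (128 against 65.3). Without the 2 cells described next, Meis1 kept a log2 ratio of 0.62 and Meis2 had -0.10. Gata4, a core cardiac factor, had a log2 ratio of 0.18.

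Of the 33 atrial-labelled cells, 2 stood apart and moved many of the values. They were LA cells of libraries B and C with 102715 and 61197 gene UMIs, and mesothelial genes made up 1.15% and 1.09% of their nuclear-encoded UMIs, against a highest value of 0.147% in the other 31 and 0.135% in ventricular-labelled cells. Myl2 stood at 679.6 and 1288 CPM in them, sarcomere genes at 0.715% and 1.11% of nuclear-encoded UMIs, and mitochondrial RNA at 4.01% and 3.60% of gene UMIs. The first of the 2 was the cell with 63 Myl7 UMIs. Together they held 13.5% of the atrial-labelled pool. Whether each well held 1 cell or several was not tested.

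Low Myl2 was not particular to the atrial label: 4 ventricular-labelled cells also lay under 2000 CPM, at 1126, 1257, 1433 and 1949 CPM. Those cells held little mesothelial RNA, from 0.00119% to 0.0254%, but 0.241% to 0.991% endothelial RNA, where the median ventricular-labelled cell held 0.0157%.

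Leaving the 2 mesothelial-rich LA cells out, 8.58% of 11196 measured genes were higher and 24.1% lower, and the median log2 ratio of all genes was -0.13. With mitochondrial UMIs counted in the total, in all 33 cells, 1812 genes were higher and 1182 lower in place of 1648 and 2022, and the median of all genes was 0.079. List medians below are therefore given with and without the 2 cells, to be read against -0.042 and -0.13. Counts of called genes in the lists are to be read against 14.4% higher and 17.7% lower, or 8.58% and 24.1% without the 2 cells. These shares include many genes with few UMIs. With at least 100 UMIs per gene 779 were higher and 877 lower, so few calls in a list of abundant genes say little.

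**Figure D2:**
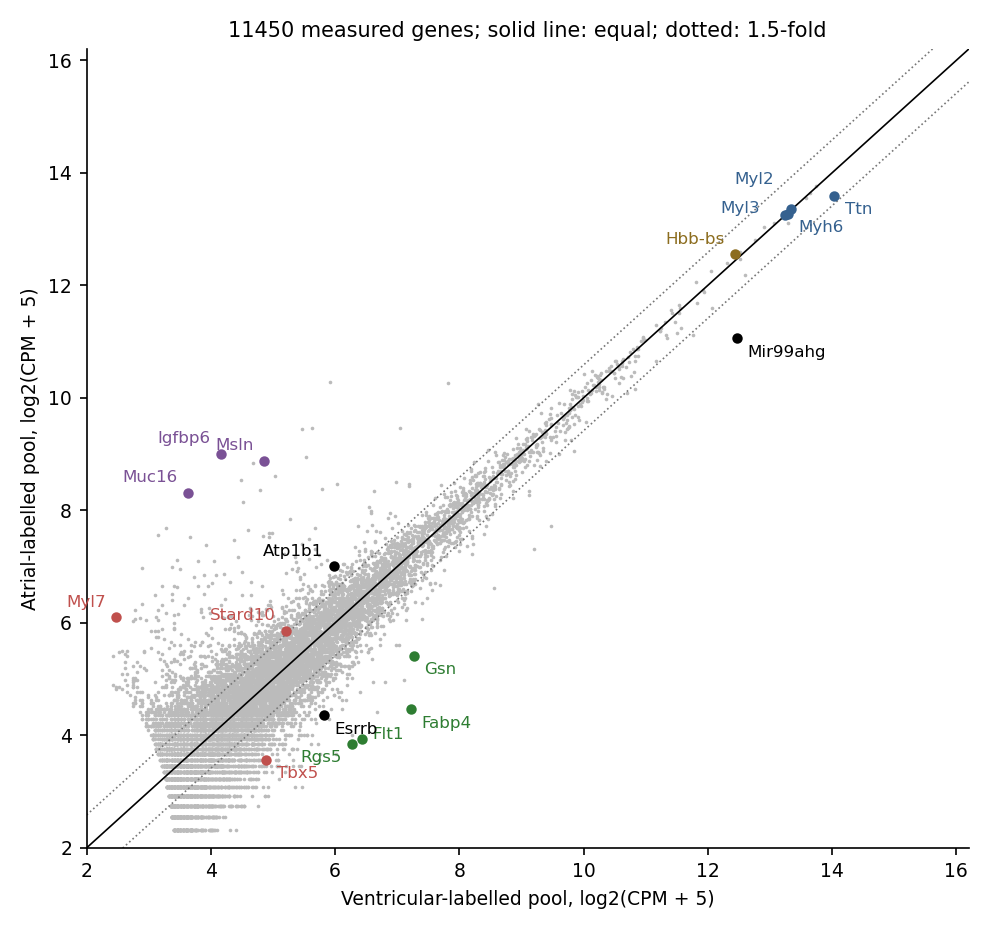
Each point is 1 of 11450 measured genes, with its level in the ventricular-labelled pool (x axis) and the atrial-labelled pool (y axis), both as log2(CPM + 5); the solid line marks equal levels and the dotted lines 1.5-fold. Myl2, Myl3 and Myh6 lie on the line, Mir99ahg below it, the labelled mesothelial genes Msln and Muc16 above it and the labelled endothelial genes Flt1 and Fabp4 below it. Of 14 measured endothelial genes 10 were lower and 2 higher. Rgs5 (mural list) and Gsn (fibroblast list) are drawn in the endothelial colour.

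Contractile genes lay at similar levels under both labels. Of 35 measured sarcomere genes none was higher and 2 were lower, with a median log2 ratio of -0.046 (0.15 without the 2 cells). The median cell gave 11.97% of its nuclear-encoded UMIs to them under the atrial and 11.5% under the ventricular label. The cardiac myosin heavy chain Myh6 had a pooled ratio of 0.989 (0.970 to 1.01), troponin T (Tnnt2) 1.01 (0.988 to 1.02) and the actin Actc1 a log2 ratio of 0.13. Ttn, the giant spring protein titin, stood at 12393 against 16798 CPM, a log2 ratio of -0.44 that was -0.24 without the 2 cells and -0.45, -0.91 and 0.045 within libraries A, B and C. The lower genes were Tmod1, which caps thin filaments (2.16-fold, 1.41 to 3.43), and the Z-disc gene Synpo2l (1.59-fold, 1.24 to 2.07).

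None of 15 calcium-handling genes reached 1.5-fold, and their median was -0.14 (0.0061 without the 2 cells). Atp2a2, the calcium pump of the sarcoplasmic reticulum, had a log2 ratio of -0.047, and Ryr2, the calcium release channel, -0.33. Slc8a1, the sodium-calcium exchanger, had the lowest value at -0.45: 27 of 33 atrial-labelled cells lay below the ventricular median of 684 CPM, with their own median at 499.7. By library its log2 ratio was -0.82, -0.97 and, in library C, 0.35.

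Of 14 intercalated disc genes 3 were lower and none higher (median -0.25, or -0.17 without the 2 cells), where 17.7% of all genes were lower and 14.4% higher. Vcl, which encodes vinculin and ties actin to adhesion sites, stood at 39.5 against 87.0 CPM (2.20-fold lower, 1.63 to 3.05). Its log2 ratio was -0.43 or below in libraries A, B and C, where all genes had medians of -0.27, -0.029 and -0.18. The others were the catenins Ctnnb1 (6 and 86 UMIs) and Ctnna3 (log2 -0.62, but 0.41 in library C). Of 9 sodium channel and pump genes 1 was higher and 2 lower, to be read beside the same shares of all genes. Atp1b1, the beta subunit of the sodium pump, was the higher one at 124 against 58.2 CPM (2.12-fold, 1.73 to 2.60). LA cells had 137 and RA cells 92.7 CPM, against 54.6 in LV and 61.3 in RV, and the log2 ratio was 1.38, 0.94 and 0.60 within libraries A, B and C. Leaving out the mesothelial-rich cells gave 0.85.

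Genes of the energy metabolism lists below lay within 1.5-fold with few exceptions. Of 71 measured nuclear-encoded genes of the respiratory chain and ATP synthase, none was higher and 1 was lower, Atp5l, with 10 and 87 UMIs. Their median log2 ratio was 0.047. Without the 2 cells it was 0.21, and 66 of the 71 lay above 0, where the median of all genes was -0.13. The median cell gave 9.01% of its nuclear-encoded UMIs to them under the atrial and 8.22% under the ventricular label. Atp5b, the catalytic subunit of ATP synthase, had 0.11, and Slc25a4, the heart's ADP/ATP carrier, 0.048. None of 25 fatty acid genes reached 1.5-fold (median -0.074), but without the 2 cells 2 were higher and the median was 0.12. None of 24 pyruvate and citrate cycle genes did with or without them (medians 0.044 and 0.22). Fabp3, the fatty acid carrier of heart muscle, had a log2 ratio of 0.037. Slc25a20, the carnitine carrier, had 0.51, and 0.69 without the 2 cells.

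None of the 12 measured mitochondrially encoded genes reached 1.5-fold relative to nuclear-encoded UMIs either, at a median of -0.24. That median was 0.17 in library A, -0.55 in B and -0.42 in C, and -0.044 without the 2 cells.

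Of 42 measured genes for ribosomal proteins 3 were higher and none lower (all genes 14.4% and 17.7%). Their median was 0.16 (0.13 without the 2 cells). They were Rpl3 (log2 0.65), Rps19 (0.61) and Rpl15 (0.59), and all 3 were within 1.5-fold without the 2 cells (0.44, 0.29 and 0.54). Rplp0, a stalk protein, had a median of 1136 CPM in atrial-labelled against 831 in ventricular-labelled cells and a log2 ratio of 0.37. Many ribosomal protein genes have near-identical processed copies, so their single values are uncertain. Of 22 proteasome and ubiquitin ligase genes only Psma4, a core subunit, was called, at 178 against 107 CPM (log2 0.70, and above 0 in libraries A, B and C).

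Early-response genes, which cell isolation can induce, had medians below those of all genes. Of 20 measured, 1 was higher and 3 lower, where 14.4% and 17.7% of all genes were. Without the 2 cells 1 was higher and 5 lower, where 8.58% and 24.1% of all genes were. Their median was -0.17, and -0.32 without the 2 cells, against -0.042 and -0.13 for all genes. The median cell gave 0.218% of its nuclear-encoded UMIs to them under the atrial and 0.217% under the ventricular label in library C, and 0.254% against 0.316% in library A. Egr1 stood at 181 against 289 CPM, and Zfp36, which speeds mRNA decay, at 106 against 171. Myc gave 1 UMI against 35, and Ier5 was higher (log2 0.73). Fos and Jun had log2 ratios of -0.18 and -0.027. The inducible heat shock gene Hspa1a was lower by 1.69-fold (1.26 to 2.32), and it has a near-identical neighbour, so its own level is uncertain.

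**Figure D3:**
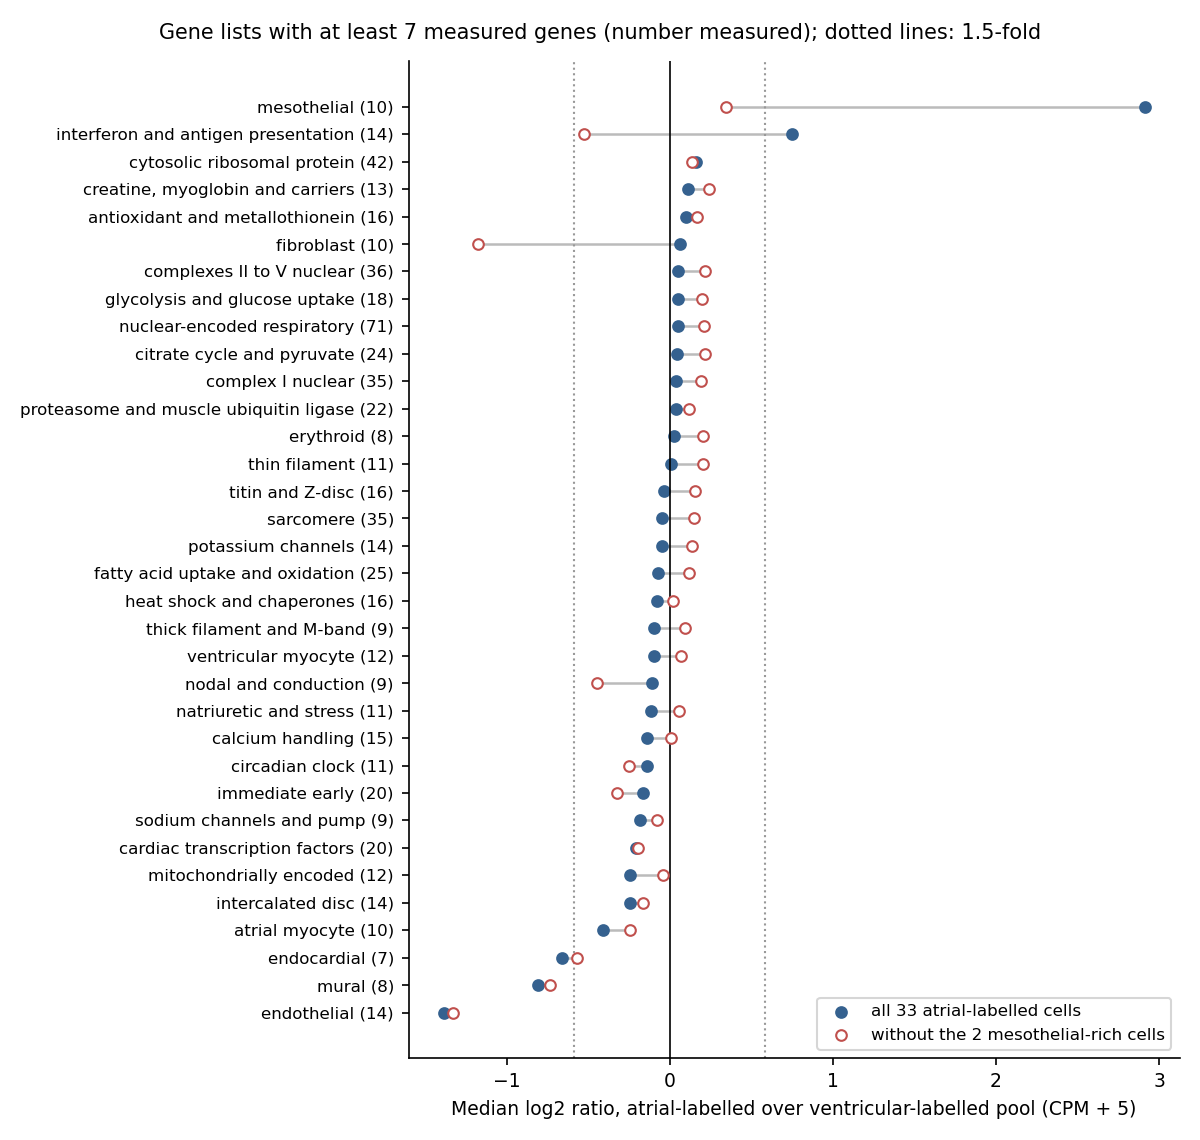
Median log2 ratio (x axis) of each gene list with at least 7 measured genes, for all 33 atrial-labelled cells (filled) and for 31 without the 2 mesothelial-rich cells (open); dotted lines mark 1.5-fold. Contractile and metabolic lists lie near 0, while the mesothelial list moves from 2.91 to 0.34, the interferon list from 0.75 to -0.52 and the fibroblast list from 0.060 to -1.18.

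Other programmes of the myocyte showed few called genes, where 14.4% of all genes were higher and 17.7% lower. None of 13 genes for creatine, myoglobin and metabolite carriers was called (median 0.11, or 0.24 without the 2 cells), and the oxygen store myoglobin (Mb) had a log2 ratio of 0.15. Of 18 glycolysis genes 1 was higher and 1 lower (2 and none without the 2 cells): the glucose carrier Slc2a1 (24.0 against 6.32 CPM) and the glycogen synthase Gys1 (41.2 against 71.4). Slc2a4, the insulin-responsive glucose carrier of muscle, had 0.13. Nppb, which encodes brain natriuretic peptide, had 0.24, with -0.21 in library A and 0.75 in library C. Of 16 antioxidant genes 1 was higher, the secreted peroxidase Gpx3, at 704 against 128 CPM, and its log2 ratio went from 2.42 to 0.55 once the 2 cells were left out.

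Genes of mesothelial cells were higher as a group, largely through the same 2 cells. All 10 measured mesothelial genes were higher, with a median log2 ratio of 2.91. Msln, which encodes mesothelin, stood at 467 against 24.0 CPM and Upk3b, a uroplakin of the mesothelial surface, at 455 against 20.6. Without the 2 cells 3 of the 10 were higher and the median was 0.34, with Msln at 0.34 and Upk3b at 0.066. The 2 cells were picked by their share of this same list, so a fall without them was built in. Muc16, a membrane mucin, kept a log2 ratio of 1.40 (from 4.67), but 1 cell gave 67.6% of its UMIs, and within library A, which holds neither cell, it was -0.22. Over all libraries, the share of mesothelial RNA in the median cell was 0.0109% in the other 31 atrial-labelled and 0.00369% in the ventricular-labelled cells. The share also differed between libraries: the ventricular-labelled median was 0 in A, 0.00909% in B and 0.00976% in C, and that of all atrial-labelled cells 0.00172%, 0.0134% and 0.0209%.

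Matrix and interferon genes depended on these cells and, on the other side, on the 8 ventricular-labelled cells rich in endothelial RNA described with the endothelial genes. Of 14 measured interferon and antigen presentation genes 10 were higher and none lower (median 0.75), where 14.4% of all genes were higher and 17.7% lower. Without the 2 cells 2 were higher and 6 lower (median -0.52). Leaving out those 8 as well, the interferon median was 0.011. Ifitm3, an interferon-induced membrane protein, went from a log2 ratio of 1.65 to -0.79, and to -0.16 without both kinds of cell. Of 10 fibroblast genes 4 were higher and 3 lower, and without the 2 cells 1 was higher and 8 lower (median -1.18, or -0.82 without both kinds of cell). Dcn, the matrix proteoglycan decorin, went from 1.53 to -1.90, whereas Fbln1, the matrix protein fibulin 1, stayed higher (2.60 and 1.21). Igfbp5, which binds insulin-like growth factors, went from 1244 against 55.2 CPM to a log2 ratio of -0.17.

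Endothelial genes were lower in the atrial-labelled pool. Of 14 measured, 10 were lower and 2 higher, with a median of -1.39 (-1.33 without the 2 mesothelial-rich cells, when 12 of 14 were lower). Fabp4, a fatty acid carrier of capillaries, stood at 17.2 against 144 CPM (8.36-fold lower, 5.37 to 13.8). The growth factor receptor gene Flt1 (a receptor for VEGF) was lower by 7.87-fold (4.46 to 15.3) and the adhesion molecule Pecam1 by 3.59-fold (2.48 to 5.37). Flt1 was lower in each library, by log2 ratios of -1.58, -3.61 and -3.24 in A, B and C. Kdr, which encodes the other main VEGF receptor, was 1 of the 2 higher genes. Leaving out the mesothelial-rich cells turned its log2 ratio to -1.13.

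The pooled endothelial difference sat in part in few cells. The median cell held 0.0149% endothelial RNA under the atrial and 0.0157% under the ventricular label, and the highest cells 0.123% and 0.991%. Over 0.2% lay 8 ventricular-labelled and no atrial-labelled cells (0 of 33), and those 8 held 57.3% of the ventricular-labelled endothelial UMIs. Leaving out these 8 and the 2 mesothelial-rich cells, the median of the endothelial list was -0.48, Flt1 had a log2 ratio of -1.46, Fabp4 -1.59 and Pecam1 -0.16. The 8 cells were picked by this same list, so a smaller difference without them was built in. Mural genes, of pericytes and arterial wall, were lower in 7 of 8 cases, and in 5 without the 2 mesothelial-rich cells (all genes 17.7% and 24.1%). Their median was -0.81, but -0.33 without each gene's top cell and -0.15 without both kinds of cell. Rgs5, a pericyte signalling regulator, had 9.45 against 72.5 CPM. Of the 12 macrophage genes listed 1 was measured, and it was lower.

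**Figure D4:**
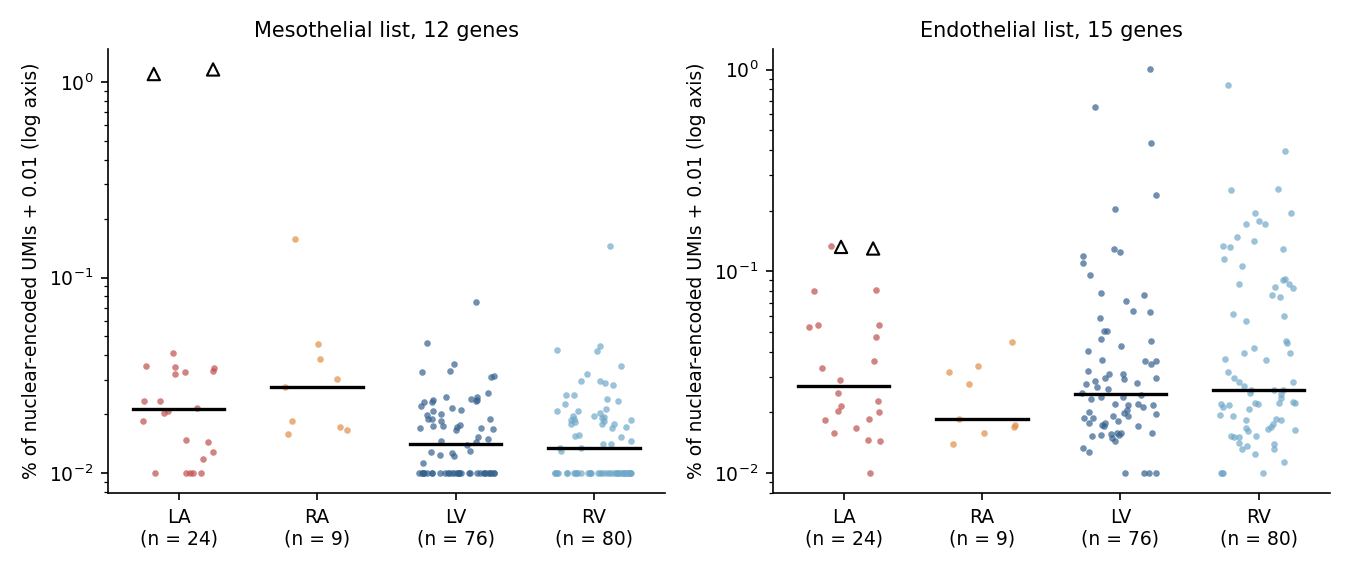
Share of nuclear-encoded UMIs per cell (log axes, 0.01% added) from the mesothelial list and the endothelial list, by chamber label; points are cells, bars medians and triangles the 2 mesothelial-rich cells. Those 2 stand at 1.15% and 1.09% on the left, and on the right the 8 cells over 0.2% are all ventricular-labelled.

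Red cell genes stood at similar levels in the 2 pools. None of 8 measured erythroid genes was called, at a median of 0.026 (0.20 without the 2 cells), and Hbb-bs, a beta-globin, had 6003 against 5551 CPM. Cells ranged widely under both labels, from 203 to 47267 CPM under the atrial and from 285 to 36982 under the ventricular label. The pooled value joined libraries of opposite sign, with a list median of 1.08 in library A, -0.33 in B and -0.41 in C. Haemoglobin genes are near-identical copies, so their single values are uncertain.

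Among single genes, the long non-coding RNA Mir99ahg was lower in most atrial-labelled cells. Its locus is the host of a microRNA cluster (chromosome 16, 77236317 to 77773427, plus strand, GRCm38), and it was chosen after its values were seen. The deposited counts do not measure mature microRNAs. The 5' mature products of 3 microRNAs inside the locus are shown because they are what the host is known for, from RefSeq (GRCm38.p6), 5' to 3', with the seed (bases 2 to 8) in capitals.
mmu-miR-99a-5p: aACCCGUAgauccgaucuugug
mmu-let-7c-5p: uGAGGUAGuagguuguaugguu
mmu-miR-125b-5p: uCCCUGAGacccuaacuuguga
No seed is shared among the 3, and they lie at chr16:77598940-77598961, chr16:77599672-77599693 and chr16:77646279-77646300.

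Mir99ahg was detected in all 189 cells. It ranged from 854 to 11459 CPM in atrial-labelled cells with a median of 1876, and from 1707 to 27900 in ventricular-labelled cells with a median of 5417. Below the 5th ventricular percentile of 2701 CPM lay 26 of 33 atrial-labelled cells, and 30 lay below the ventricular median. The pools stood at 2332 (LA), 1682 (RA), 5738 (LV) and 5569 CPM (RV), 2.65-fold lower under the atrial label (2.54 to 2.76). The log2 ratio was -1.23, -1.56 and -1.56 within libraries A, B and C, and -1.34 once the mesothelial-rich cells were left out.

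The low Mir99ahg level was not uniform across libraries. In library B all 15 atrial-labelled cells (1068 to 2527 CPM) lay under the 5th ventricular percentile, in library C 7 of 8, and in library A 3 of 9. Above 5000 CPM lay 3 atrial-labelled cells of library A and 1 of library C, and 86 of 156 ventricular-labelled cells. The highest of these atrial-labelled cells, at 11459 (library C) and 10666 CPM (library A), held 73.3% and 68.8% mitochondrial RNA. The others, at 6263 and 5181 CPM, held 30.9% and 34.2%. A relation of Mir99ahg with mitochondrial share was not tested.

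**Figure D5:**
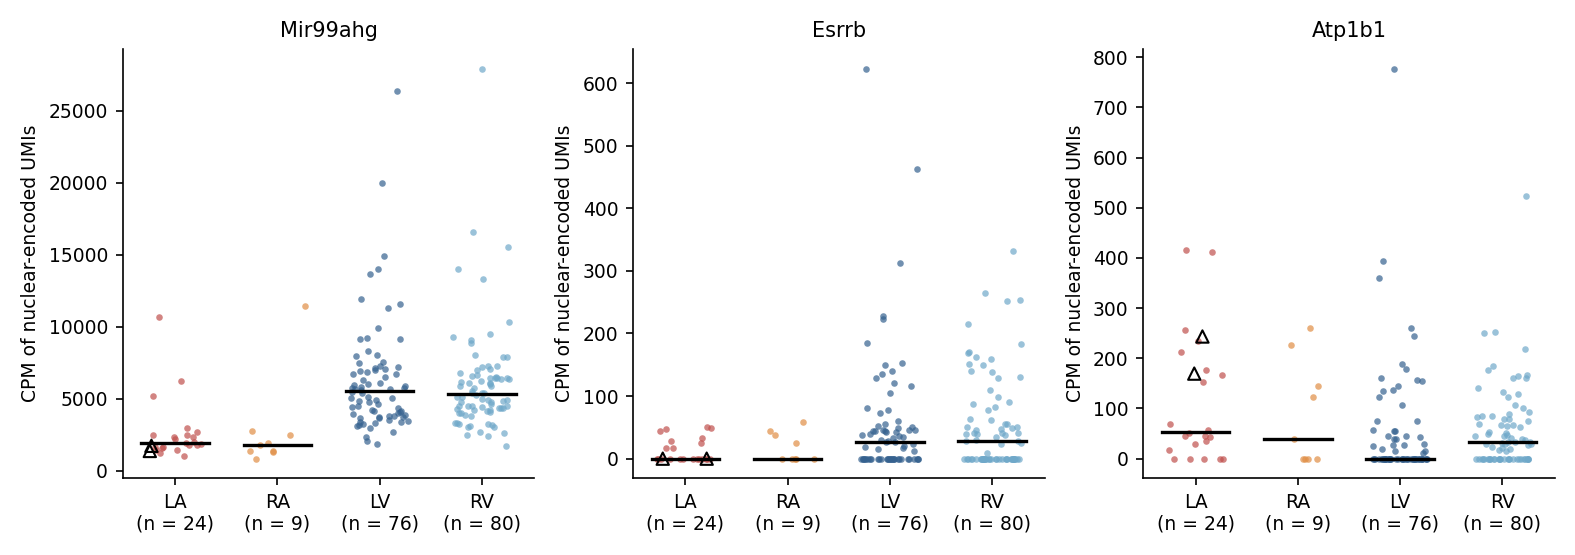
CPM per cell (linear axes) of Mir99ahg, Esrrb and Atp1b1 by chamber label; points are cells, bars medians and triangles the 2 mesothelial-rich cells. Most LA and RA cells lie under 2701 CPM for Mir99ahg, the 5th percentile of the ventricular-labelled cells, and Esrrb is at a median of 0 in both atrial labels.

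Counting cells on either side of the ventricular median, a measure added after the data were seen, gave few genes that separated the labels. It covered 1510 genes with at least 100 CPM in the higher pool and a UMI in most ventricular-labelled cells. For 15 of these genes (0.993%), 27 or more of the 33 atrial-labelled cells lay below that median, and for 3 (0.199%) above it. No such demand was made of the atrial-labelled cells, so genes seen mainly in them were left out. The counts below and above therefore cannot be compared. Of the 15, 5 were predicted genes. The others were Mir99ahg, Slc8a1, Afm, Myo3a, Nkain2, Chl1, Dlgap1, Trim30a, Col19a1 and Slc22a15. Afm, a vitamin E binding protein of liver, stood at a cell median of 347 against 549 CPM, and 32 of 33 atrial-labelled cells lay below the latter. Myo3a, an unconventional myosin of hair cells, had 506 against 925 CPM with 30 below, and Nkain2, a membrane protein of brain that binds the sodium pump, 1061 against 1648 with 30 below. Trim30a, a regulator of innate immune signalling, had 4708 against 6079.8 CPM with 29 below.

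Several of these genes are known from organs other than the heart, and the counts do not say whether their UMIs came from exons, introns or an overlapping gene, since strand use in counting is not given in the sources used here. Their gene spans were long: the median was 240 kb for the 15 genes, against 27.0 kb for all 1510. On the other side Gstm2, a glutathione transferase, had a cell median of 137 against 63.9 CPM, with 28 of 33 atrial-labelled cells above, and the pooled ratio was 1.91 (1.63 to 2.24). The remaining 2 were predicted genes.

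Longer genes had lower median ratios in the pools and in libraries B and C, a relation looked at after the data were seen. Grouped by span on the genome, the median log2 ratio was 0.042 for 2523 genes under 10 kb, -0.072 for 3465 genes of 30 to 100 kb, -0.13 for 1678 genes of 100 to 300 kb and -0.33 for 589 genes of 300 kb or more. Of the longest group 32.8% were lower and 7.81% higher. The longest group was also the lowest within libraries B (-0.52) and C (-0.49), without the 2 mesothelial-rich cells (-0.45), and among genes with at least 300 UMIs (-0.28 over 224 genes). Library A showed no such order above 30 kb, with -0.37 for 30 to 100 kb, -0.33 for 100 to 300 kb and -0.37 for 300 kb or more. Per cell, genes of 100 kb or more took a median of 18.1% of nuclear-encoded UMIs under the atrial and 20.3% under the ventricular label, with 25 of 33 atrial-labelled cells below the ventricular median. Ttn, Ryr2, Slc8a1, Ctnna3, Zfpm2, Esrrb and Mir99ahg, all with pooled log2 ratios below 0, span 100 kb or more. Long genes with higher ratios are not listed, so these names do not bear on the relation. Of the 1678 genes of 100 to 300 kb, 218 were higher and 401 lower, and no single gene was tested for a relation with length.

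A further filter kept genes with at least 50 CPM on the higher side that stayed 1.5-fold apart without the 2 mesothelial-rich cells and without the gene's top cell, with both atrial labels on the same side of both ventricular labels. It left 81 of the 1648 higher and 145 of the 2022 lower genes among 11450 measured. The filter used the same cells as the ratios, so passing it is no independent check. How many genes reached 50 CPM is not given. The 12 furthest on the higher side still included mesothelial and matrix genes (Igfbp6, Muc16, Upk1b, Slc26a3, Fbln1, Bmp1), with the proteoglycan Sdc4, the sulfatase Arsb, the sorting protein Tmed3, Nob1, Zdbf2 and 1 predicted gene. In Arsb 1 cell gave 56.4% of the atrial-labelled UMIs. Nob1, an endonuclease that finishes the small ribosomal subunit, stood at 54.1 against 14.7 CPM (3.68-fold, 2.60 to 5.19), its top cell gave 19.0%, and its log2 ratio was 1.91, 0.60 and 0.59 within libraries A, B and C. Before the filter the 5 highest ratios were those of Igfbp6, Muc16, Rarres2, Nkain4 and Igfbp5, and in each 1 cell supplied the larger part of the atrial-labelled UMIs, from 57.7% to 69.1%.

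On the lower side the 12 furthest were 6 predicted genes and Fabp4, Flt1, Rgs5, Fli1, Ptprb and Gsn. Fli1, a factor of endothelial and blood cells, was lower by 7.72-fold (4.02 to 17.0) and Ptprb, an endothelial phosphatase, by 4.16-fold (2.88 to 6.22). Gsn, the actin-severing protein gelsolin, was lower by 3.95-fold (2.91 to 5.48). Without the 8 endothelial-rich and the 2 mesothelial-rich cells their log2 ratios were -1.68 for Fli1, -0.56 for Ptprb and -1.47 for Gsn.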

How the data were processed

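Single cells sorted from adult mouse hearts were profiled by SCRB-seq. The authors deposited raw UMI counts and read counts per gene and cell, with chamber and library labels per cell. The submitters' processing notes name STAR 2.5.4b, featureCounts and the build GRCm38. The annotation release, the use of strand and the tool that collapsed UMIs were not stated in these sources. Of 353 barcode columns, 21 carried no label and were not used.

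Gene symbols and coordinates came from GENCODE M21, which matched 24489 of 24522 gene IDs. Counts were summed per side over cells with at least 20000 gene UMIs and divided by the nuclear-encoded total. A pseudocount of 5 CPM, a minimum of 30 UMIs over both pools and a limit of 1.5-fold were used, with exact 95% Clopper-Pearson intervals of the ratio. No doublet caller was run, and no test could be made with 1 pool per side. Thinned values are exact expectations at 20000 UMIs. Steps were tested on simulated counts. Python 3.11.15, pandas 2.3.3, scipy 1.17.1 and, for TMM factors, edgeR 4.0.16 in R 4.3.3 were used.

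The members and the 39 gene lists were chosen with earlier results of these data known. Named genes were all measured atrial and ventricular list members, the 4 most abundant and 2 most different members of each other list as far as needed, the 12 highest and 12 lowest ratios past the filter the text describes and the 5 highest before it. Predicted genes were counted, not named. Mir99ahg, the genes ranked by counts of cells, and further list members named beside a count were chosen after their values were seen.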

Additional observations from a re-analysis of the deposited data

How the results depend on the processing

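Values were recomputed under 24 other settings, 22 planned and 2 added after the data were seen (both endothelial-rich and mesothelial-rich cells left out, and TMM factors without the mesothelial-rich cells). The main results were the counts of called genes and the medians of all genes and of the ventricular, atrial, sarcomere, mesothelial, endothelial, erythroid and respiratory lists. Of 240 values of these, 192 stayed within the range called the same (1.5 times for counts, the counting interval of the middle gene for medians). A reversal could be scored only for the mesothelial and endothelial medians, which lay past 1.5-fold, and neither reversed. Medians nearer 0 did change sign between settings. The sarcomere median ranged from -0.23 to 0.22, the respiratory from -0.054 to 0.28 and the ventricular from -0.18 to 0.24. The erythroid median ranged from -0.41 to 1.08 and that of all genes from -0.29 to 0.079. Of 3227 values of single genes and other lists, 2248 lay within their counting interval and 44 reversed a called direction. The causes were not tested.

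The count of higher genes was 779 with at least 100 UMIs per gene, 718 with a pseudocount of 20 CPM, 775 within library A, 496 without each gene's top cell, 961 without the mesothelial-rich cells and 1020 also without the endothelial-rich cells. The count of lower genes was 877, 446, 3840 with read counts, 1182 with all gene UMIs as the total and 4145 with RA cells only, the first 2 for the same 2 settings.

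The mesothelial median was 4.07 and 1.82 with pseudocounts of 1 and 20 CPM, 4.10 with at least 100 UMIs, 1.93 without each gene's top cell, 0 within library A, 0.20 in RA cells, 0.34 without the mesothelial-rich cells, 0.38 with TMM factors added and 0.36 also without endothelial-rich cells. The endothelial median was -2.27 with read counts, -2.17 within library C, -2.18 in RA cells and -0.48 without both kinds of cell. The erythroid median was 1.08 within library A and -0.41 within C. The sarcomere and respiratory medians were 0.11 and 0.20 with all gene UMIs, -0.11 and -0.037 without cells over 2% non-myocyte RNA, 0.15 and 0.21 without the mesothelial-rich cells, 0.22 and 0.28 with TMM factors added, 0.082 and 0.15 without both kinds of cell, -0.23 and -0.054 in LA cells, 0.21 and 0.26 in RA cells, and -0.13 and -0.026 within library B. The sarcomere median alone was 0.029 without library B, -0.14 without C and 0.090 within C, and the respiratory median alone 0.15 within A. In RA cells the ventricular median was 0.24 and that of all genes -0.29.

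Reversed log2 ratios without the mesothelial-rich cells were -0.52 for the interferon median, -0.17 for Igfbp5, -1.90 for Dcn, -1.13 for Kdr, -0.79 for Ifitm3, -0.10 (-0.0996) for Meis2 and -0.57 for Rarres2. With TMM factors these were -0.48, -0.099, -1.83, -1.07, -0.73, -0.031 and -0.55. Without both kinds of cell Igfbp5 had -0.088, Dcn -1.57, Kdr -0.51, Ifitm3 -0.16, Meis2 -0.13, Rarres2 -0.49 and the endocardial median 0.30. Within library A reversals were -0.85 for the interferon median, 0.75 for lymphocyte and neutrophil genes (1 measured), -0.22 for Muc16 and -2.58 for Dcn. Further reversals there were -0.33 for Kdr, -1.19 for Ifitm3, 0.59 for Myl4, -0.43 for Meis2, -0.57 for Rarres2 and -0.98 for Bmp1. In RA cells they were -1.14 for the interferon median, -0.15 for Myl7, -0.036 for Kcnj5, -0.19 for Rpl3, -0.64 for Igfbp5, -3.23 for Dcn, -2.40 for Kdr, -1.29 for Ifitm3, 0.15 for Ctnna3, -0.31 for Nkain4 and -0.19 for Rarres2. Ctnna3 had 0.41 within library C, and Nr2f2 0.12 without cells over 2% non-myocyte RNA. Some of these reversals lie at the floor: atrial-labelled cells gave very few Myl4 UMIs, and RA cells gave no Myl7 UMI.

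Values within library D were not computed, since it held 1 deep atrial-labelled cell. No paired analysis was possible because no animal, culture or replicate number is named. The atrial-labelled pool is the smaller, at 3 counts for 2.58 CPM, so a gene with few UMIs there has a wide interval. Counting intervals leave out differences between cells, animals and plate rows, and the 9 RA cells cannot carry a comparison of their own.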

Other observations

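Transcripts of both sexes occurred in the same wells. A UMI of Xist, the X-inactivation RNA of female cells, and a UMI of at least 1 Y-linked gene were found together in 5 of 9, 6 of 15, 3 of 8 and 0 of 1 deep atrial-labelled cells of libraries A, B, C and D. Among deep ventricular-labelled cells the counts were 18 of 36, 15 of 38, 22 of 40 and 23 of 42. The labels used here give no sex for the animals, and the source of these UMIs was not tested.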
